A study of Rattus norvegicus with 4 samples.

Results

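The genes described here are 10 that carry the unfolded protein response and the folding of proteins in the endoplasmic reticulum. They are the stress sensors Ern1, Atf6 and Atf6b, the transcription factors Xbp1, Atf4 and Ddit3, and the folding proteins Hspa5, Calr, Canx and Pdia4. They were found by matching the accession of each array probe to the rat genes of these names, which gave 11 probes of 30367 and all 10 genes of the 22821 measured. The genes were selected on the oxaliplatin minus vehicle difference in the Cy5/Cy3 ratio, known from earlier work on these data, so those differences are given as descriptions, with no test. Atf6b and Calr were the members with the widest differences. The test given for the members is of the Cy5/Cy3 ratio averaged over all 4 arrays. That average is another contrast than the group difference, but it is made of the same 4 ratios per gene, so its p-values come from no data outside those that chose the members.

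RNA came, per the labels, from the dorsal horn of the spinal cord of male rats aged 6 weeks, on day 10. The dorsal horn receives the input of sensory nerves. One group was given oxaliplatin, a platinum drug for cancer that can damage sensory nerves and cause pain, and the other its vehicle. Each group had 2 Agilent 2-colour arrays. Per the labels, the dye Cy5 marked RNA of the oxaliplatin or vehicle rats, and the dye Cy3 marked RNA of untreated male rats of the same age on all 4 arrays. No array had the dyes swapped, so a dye effect and a difference between the RNAs cannot be told apart in a Cy5/Cy3 ratio. The protocol text speaks of Cy3 labelling alone, so which RNA lay in which channel rests on the labels and is not settled by the files. Dose, route, strain and number of rats per array are not given in the sources used here. What the p-values below measure is therefore only the spread between arrays.

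The endoplasmic reticulum folds proteins that a cell secretes or places in its membranes. When unfolded proteins pile up there, the chaperone Hspa5 (BiP) leaves the sensors, and signalling starts from Ern1 (IRE1), Atf6 and the kinase Eif2ak3 (PERK). Ern1 splices the Xbp1 transcript, Atf6 is cut in the Golgi into a transcription factor, and Eif2ak3 slows translation while Atf4 is made, which in turn raises Ddit3 (CHOP). Many targets are the chaperones themselves. Sensory neurons and myelinating glia make large amounts of membrane and secreted protein. The arrays measured transcript levels, so neither Xbp1 splicing, Atf6 cleavage nor phosphorylation of the sensors was measured.

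Some facts about the arrays bear on every ratio below. The groups were on different slides, so slide and group cannot be told apart. The oxaliplatin arrays shared a scan, and each vehicle array had another, so scan and group cannot be told apart either. The oxaliplatin arrays had median Cy3 signals of 494 and 283.5, against 564 and 530 on the vehicle arrays. Oxaliplatin replicate 1 correlated across genes more closely with vehicle replicate 1 (r = 0.918) than with oxaliplatin replicate 2 (r = 0.854). In Cy5, all 8 measured markers of Schwann cells and sensory ganglia were called higher than in Cy3, with a median log2 ratio of 2.87. So were 6 of 7 forebrain markers (median 1.46, up to 6.45, the highest ratio of all genes). All 8 oligodendrocyte markers were called lower (median -1.43), as were 6 of 8 astrocyte markers (median -0.999), while 1 astrocyte marker, the glutamate transporter Slc1a3, was called higher (1.39). Among cells that fold much secreted protein, 3 of 5 plasma cell markers were called higher and 0 lower (median 0.28), and 5 of 9 markers of secretory epithelium higher and 2 lower (median 0.20, up to 2.29). Of red blood cell markers 2 of 5 were higher and 0 lower, of neuronal markers 3 of 8 higher and 3 lower, and of microglial markers 1 of 8 higher and 4 lower. Over all genes 29.3% were called higher and 26.3% lower. Nothing is therefore read from the red cell, neuronal, microglial, plasma cell and secretory counts. Markers of neurons, astrocytes and oligodendrocytes were well above background in both channels on all arrays, 8 of 8 in each list. The channels thus differed most clearly in markers of Schwann cells and ganglia, forebrain, oligodendrocytes and astrocytes. The part of this in the members' ratios was not tested. Whether both channels held RNA of the labelled tissue was not tested either. In RNA of whole tissue, fewer cells of a type and less RNA per cell cannot be told apart.

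Among 8 members with an entry in the RefSeq promoter table (build GRCr8), 4 carried the ER stress response element within 250 bases before to 50 bases after the gene's start. The element, the stretch through which cleaved Atf6 and spliced Xbp1 act on chaperone genes, was searched on both strands as CCAAT and CCACG with any 9 bases between them. It stood in 21 of 33469 promoters (0.0627%). The 4 that hold it are shown because this element is the one known for calling up ER chaperones under stress. Capitals mark the element, and in Calr it reads on the opposite strand.
Hspa5, chr3:38452961-38453003, plus strand: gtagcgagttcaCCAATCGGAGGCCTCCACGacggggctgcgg
Xbp1, chr14:84604546-84604588, plus strand: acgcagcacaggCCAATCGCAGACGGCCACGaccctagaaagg
Calr, chr19:40213123-40213165, plus strand: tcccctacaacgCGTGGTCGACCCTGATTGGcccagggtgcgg
Canx, chr10:35158057-35158099, minus strand: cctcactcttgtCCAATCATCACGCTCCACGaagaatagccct
The element began 43 bases before the start in Hspa5 and 65 bases before it in Xbp1, against 232 in Calr and 230 in Canx, counted from its end farther from the start. Atf6b, Atf4, Ddit3 and Pdia4 did not hold these letters in this window, and Ern1 and Atf6 had no entry. A shorter form, ERSE-II (ATTGG and CCACG with 1 base between them, in 0.0508% of promoters), the core of the Xbp1 element (TGACGTGG, 0.559%) and that of the Atf4 element (TGATGNAA, 3.41%) were found in 0 of the 8. A match is a run of letters and shows no binding.

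Over all 4 arrays, 4 of the 10 members had a higher signal in Cy5, labelled as the treated rats' RNA, than in Cy3, labelled as that of untreated rats. They were Xbp1, Ddit3, Atf6 and Pdia4. Canx and Ern1 were lower in Cy5, and Hspa5, Calr, Atf6b and Atf4 did not pass the test. Calls are by limma with an adjusted p under 0.05 over 22821 genes, of which 29.3% were called higher and 26.3% lower, so the members' counts lie near that background. With median centring of each array in place of loess, the intensity-dependent correction used here, 7 members were called higher and 1 lower, beside 33.6% of all genes higher and 27.4% lower at that setting.

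**Figure D1:**
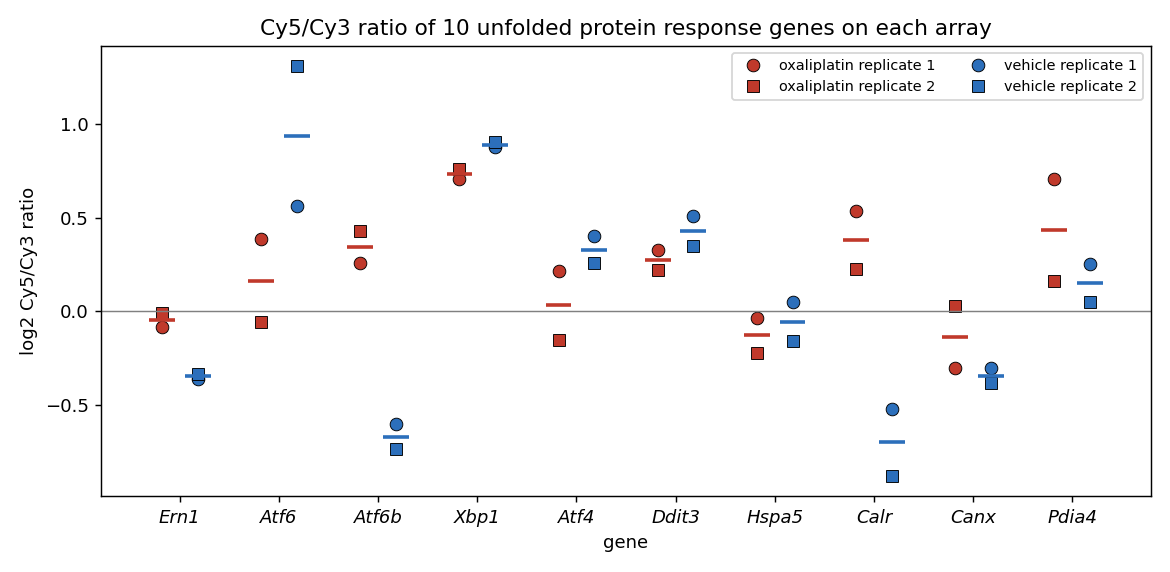
Log2 Cy5/Cy3 ratio of each member on each array, ordered by role, with oxaliplatin arrays left of vehicle arrays and the group means as bars. Atf6b and Calr lie above 0 on both oxaliplatin arrays and below 0 on both vehicle arrays, while Xbp1 lies above 0 on all 4.

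Of the sensors, Ern1, the kinase and nuclease that splices Xbp1, had log2 Cy5/Cy3 ratios of -0.08 and -0.01 on the oxaliplatin arrays, against -0.36 and -0.33 on the vehicle arrays. All 4 were below 0, and the oxaliplatin arrays were the higher of the groups, with no overlap. The mean ratio was -0.20 ± 0.06 (SE, n = 4 arrays; limma, adjusted p = 0.0236). The oxaliplatin minus vehicle difference was 0.30 ± 0.11 (SE, log2, n = 2 arrays per group), and -0.03 with median centring. Its log2 Cy5 signal was 7.26 and 7.10 on the oxaliplatin arrays, against 7.11 and 7.15 on the vehicle arrays, and its log2 Cy3 signal was 7.34 and 7.10, against 7.47 and 7.48. The groups overlapped in Cy5 and were apart in Cy3, where the oxaliplatin arrays were lower by 0.25. The probe was dim, with Cy5 at 2.33 to 2.74 times its local background, and its duplicate spots on vehicle replicate 2 differed with an SD of 0.42. The call was lost without oxaliplatin replicate 1 (adjusted p = 0.0601 for a ratio of -0.18), vehicle replicate 1 (adjusted p = 0.136 for -0.19) or vehicle replicate 2 (adjusted p = 0.113 for -0.20), and with the replicate number as a block (adjusted p = 0.0534 for -0.20), each by limma.

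Atf6, the sensor whose cut fragment switches on chaperone genes, had ratios of 0.38 and -0.06 on the oxaliplatin arrays, against 0.56 and 1.31 on the vehicle arrays. Both oxaliplatin ratios lay below both vehicle ratios, and vehicle replicate 2 stood highest. The mean ratio was 0.55 ± 0.13, or 1.46-fold higher in Cy5 (limma, adjusted p = 0.0109). The oxaliplatin minus vehicle difference was -0.77 ± 0.26, which is -0.40 without vehicle replicate 2. The log2 Cy5 signal was 11.03 and 11.04 on the oxaliplatin arrays, against 10.95 and 11.17 on the vehicle arrays, a difference of -0.03. The log2 Cy3 signal was 10.65 and 11.09 on the oxaliplatin arrays, against 10.39 and 9.87 on the vehicle arrays, a difference of 0.74. Nearly all of the difference in the ratio thus lay in Cy3, labelled as untreated RNA. Weight in Cy3 was not particular to Atf6. Over all genes the ratio difference correlated by -0.66 with the Cy3 difference and by -0.18 with the Cy5 difference. A second, dimmer probe of Atf6 read -0.32 and -0.16 on the oxaliplatin arrays, against 0.06 and 0.24 on the vehicle arrays. It put the groups in the same order, with a difference of -0.39, but its mean ratio was -0.05, where the first probe's was well above 0. With both probes averaged, the mean ratio was 0.25 (limma, adjusted p = 0.0414).

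Atf6b, the paralog of Atf6 with a weaker effect on transcription, differed between the groups in the other direction. Its ratios were 0.26 and 0.43 on the oxaliplatin arrays, against -0.60 and -0.74 on the vehicle arrays. The groups lay on opposite sides of 0. The difference was 1.01 ± 0.13, a 2.02-fold higher ratio on the oxaliplatin arrays, and ranked 29 from the top of the 22821 genes. Its lowest value when each array was left out in turn was 0.93. The log2 Cy5 signal of Atf6b was 9.18 and 9.22 on the oxaliplatin arrays, against 9.52 and 9.69 on the vehicle arrays. In Cy5, labelled as the treated rats' RNA, Atf6b therefore was lower by 0.41 on the oxaliplatin arrays. The log2 Cy3 signal was 8.92 and 8.79 on the oxaliplatin arrays, against 10.13 and 10.43 on the vehicle arrays, a difference of -1.42. The higher ratio of Atf6b thus came with less signal in both channels, and with the larger difference in Cy3, which per the labels held untreated RNA in both groups. Its mean ratio was -0.16 ± 0.06 (limma, adjusted p = 0.0642). That mean passed the test without oxaliplatin replicate 2 (-0.21, adjusted p = 0.0369 by limma) and with the scanner's own log ratio (-0.25, adjusted p = 0.0392 by limma).

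Genes that neighbour Atf6b in the rat reference (GRCr8) did not share its pattern as a block. Of the 5 measured genes on either side, the differences ran from -0.32 for Stk19 to 0.44 for Ppt2, a lysosomal thioesterase. The oxaliplatin arrays were higher, without overlap, for Tnxa-ps1, Fkbpl and Ppt2, and lower for Dxo and Stk19. Over all genes 27% were apart and higher and 22.2% apart and lower, so nothing is read from these counts. The named genes whose 4 ratios lay nearest to those of Atf6b were Ip6k2, an inositol phosphate kinase, at a Euclidean distance of 0.167 over the 4 arrays, Capn6 at 0.269 and Fjx1 at 0.270.

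Of the transcription factors, Xbp1, the target of Ern1, had the largest mean ratio of the members. The ratios were 0.71 and 0.76 on the oxaliplatin arrays, against 0.88 and 0.90 on the vehicle arrays. All 4 were well above 0, and the oxaliplatin ratios lay below the vehicle ratios by a small step. The mean was 0.81 ± 0.06, a 1.76-fold higher signal in Cy5 (limma, adjusted p = 5.8e-05). The oxaliplatin minus vehicle difference was -0.16 ± 0.11, and 0.03 with median centring. The log2 Cy5 signal of Xbp1 was 13.72 and 13.66 on the oxaliplatin arrays, against 13.30 and 12.96 on the vehicle arrays. The log2 Cy3 signal was 13.02 and 12.90 on the oxaliplatin arrays, against 12.43 and 12.06 on the vehicle arrays. Both channels of Xbp1 were thus higher on the oxaliplatin arrays, Cy5 by 0.56 and Cy3 by 0.71, and the ratio showed little of it.

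Atf4, the factor that drives amino acid and stress genes, had ratios of 0.22 and -0.15 on the oxaliplatin arrays, against 0.40 and 0.26 on the vehicle arrays. The oxaliplatin ratios lay below the vehicle ratios, with oxaliplatin replicate 2 lowest. The mean was 0.18 ± 0.08 (limma, adjusted p = 0.0880), and the difference was -0.30 ± 0.16. The mean passed the test without oxaliplatin replicate 2 (0.27, adjusted p = 0.0120 by limma) and with median centring (0.85, adjusted p = 6.9e-05 by limma). In Cy5 the log2 signal of Atf4 was 15.04 and 15.10 on the oxaliplatin arrays, against 15.21 and 15.30 on the vehicle arrays, so it was lower on both by a step of 0.19 in the means. Its log2 Cy3 signal of 14.82 and 15.25 on the oxaliplatin arrays, against 14.81 and 15.04 on the vehicle arrays, overlapped. The Atf4 probe had 10 spots per array, of which 2 were outliers on oxaliplatin replicate 2.

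Ddit3, the factor CHOP that follows Atf4 and promotes cell death under lasting stress, had ratios of 0.33 and 0.22 on the oxaliplatin arrays, against 0.51 and 0.35 on the vehicle arrays. All 4 were above 0, with the oxaliplatin arrays lower. The mean was 0.35 ± 0.06, or 1.28-fold higher in Cy5 (limma, adjusted p = 0.00296). The difference between the groups was -0.16 ± 0.12, and -0.03 with median centring. In Cy5 the log2 signal of Ddit3 was 13.56 and 13.58 on the oxaliplatin arrays, against 13.57 and 13.47 on the vehicle arrays, and these overlapped. In Cy3 the log2 signal was 13.23 and 13.36 on the oxaliplatin arrays, against 13.06 and 13.12 on the vehicle arrays, so the oxaliplatin arrays were the higher in that channel, by 0.21. Xbp1, Atf4 and Ddit3 therefore had the same order of groups, with differences of -0.16, -0.30 and -0.16.

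**Figure D2:**
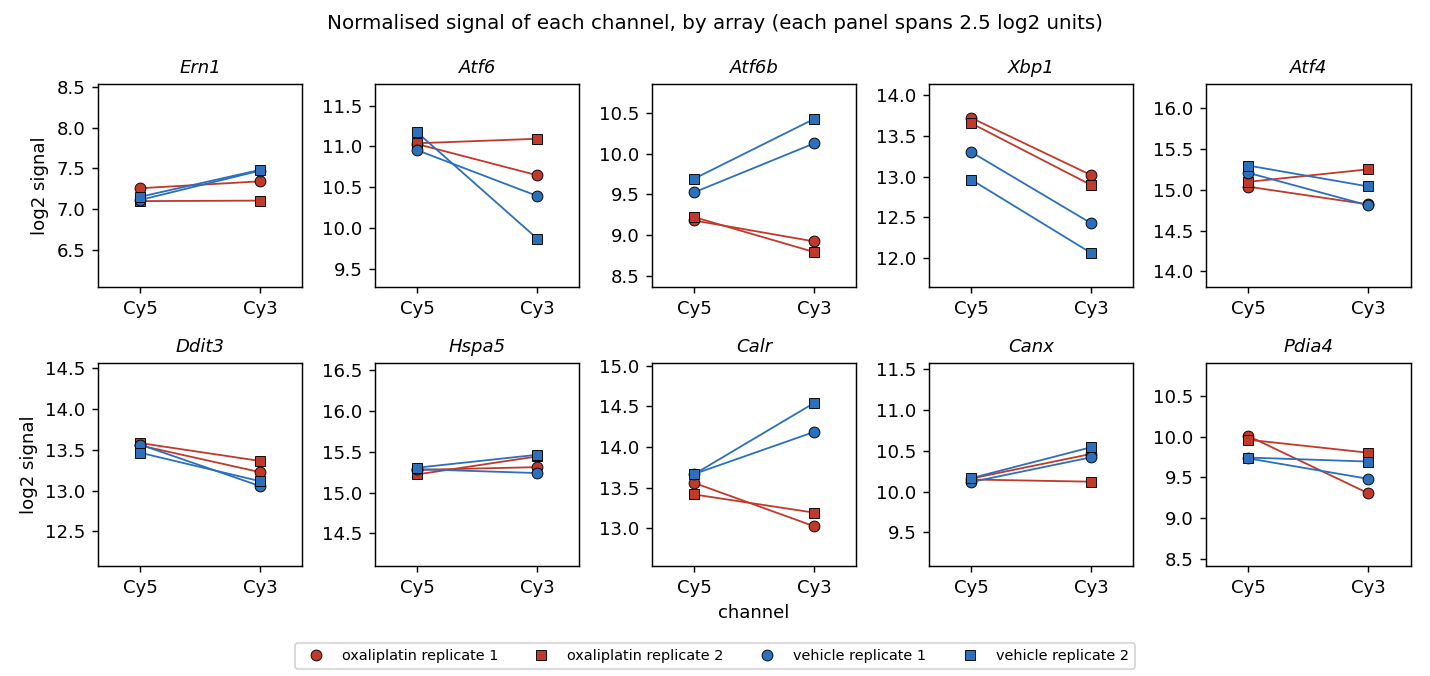
Log2 signal of each member in Cy5 and in Cy3 on each array, after normalisation, with oxaliplatin arrays in red, vehicle arrays in blue and a line joining the channels of an array. For Atf6b and Calr the vehicle arrays stand apart in Cy3, and for Xbp1 both channels are higher on the oxaliplatin arrays.

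Of the folding proteins, Hspa5, the chaperone that holds the sensors in check and whose transcript is the usual readout of the response, showed the smallest difference between the groups among the members. Its ratios were -0.03 and -0.22 on the oxaliplatin arrays, against 0.05 and -0.16 on the vehicle arrays. The groups overlapped. The mean was -0.09 ± 0.07 (limma, adjusted p = 0.281), but 0.63 (limma, adjusted p = 2.55e-04) with median centring. The difference was -0.07 ± 0.13, with -0.05 in Cy5 and 0.03 in Cy3. Hspa5 had a log2 Cy5 signal of 15.28 and 15.22 on the oxaliplatin arrays, against 15.29 and 15.31 on the vehicle arrays. Its log2 Cy3 signal was 15.31 and 15.45 on the oxaliplatin arrays, against 15.24 and 15.47 on the vehicle arrays, and the groups overlapped there. Leaving out an array moved the difference in the ratio between -0.18 and 0.03. The named genes nearest to Hspa5 over the 4 arrays were Tma16 at a distance of 0.0413, Slc17a9 at 0.0678 and St6gal1 at 0.0711, closer than any found for Atf6b.

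Calr, a calcium-binding chaperone of glycoproteins, had ratios of 0.53 and 0.22 on the oxaliplatin arrays, against -0.52 and -0.88 on the vehicle arrays. The groups lay on opposite sides of 0, as for Atf6b. The difference was 1.08 ± 0.17, a 2.11-fold higher ratio on the oxaliplatin arrays, and ranked 23 from the top of 22821 genes, with a range of 0.90 to 1.26 when each array was left out. The log2 Cy5 signal was 13.56 and 13.42 on the oxaliplatin arrays, against 13.67 and 13.66 on the vehicle arrays, a difference of -0.18. The log2 Cy3 signal was 13.03 and 13.19 on the oxaliplatin arrays, against 14.19 and 14.54 on the vehicle arrays, a difference of -1.25. After normalisation Calr, like Atf6b, was lower in both channels on the oxaliplatin arrays, with most of the difference in Cy3. Before normalisation the Cy5 signals of Calr overlapped, at 20200 and 19025.5 on the oxaliplatin arrays, against 18758.2 and 21020.2 on the vehicle arrays. Those of Atf6b were apart before normalisation too. The mean ratio was -0.16 ± 0.09 (limma, adjusted p = 0.153), and 0.27 (limma, adjusted p = 0.0260) with median centring.

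Canx, the membrane-bound partner of Calr in the same glycoprotein cycle, did not share the size of its difference. Its ratios were -0.30 and 0.03 on the oxaliplatin arrays, against -0.30 and -0.38 on the vehicle arrays. Oxaliplatin replicate 2 stood away from the others, and replicate 1 of the 2 groups lay side by side, at -0.303 for oxaliplatin and -0.304 for vehicle, so the groups were barely apart. The mean was -0.24 ± 0.07 (limma, adjusted p = 0.0271), and the difference was 0.20 ± 0.14, which is 0.04 without oxaliplatin replicate 2. The call of the mean was lost without oxaliplatin replicate 1 (adjusted p = 0.0882 for a ratio of -0.16), vehicle replicate 1 (adjusted p = 0.0710 for -0.26) or vehicle replicate 2 (adjusted p = 0.118 for -0.22). Under median centring it was lost as well (adjusted p = 0.165 for -0.16). These tests are limma's. Canx had a log2 Cy5 signal of 10.16 and 10.15 on the oxaliplatin arrays, against 10.12 and 10.17 on the vehicle arrays, and these overlapped. Its log2 Cy3 signal was 10.46 and 10.12 on the oxaliplatin arrays, against 10.42 and 10.55 on the vehicle arrays, with oxaliplatin replicate 2 the low one.

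Pdia4, a disulphide isomerase that works with Hspa5, had ratios of 0.71 and 0.16 on the oxaliplatin arrays, against 0.25 and 0.05 on the vehicle arrays. All 4 were above 0, and the groups overlapped because oxaliplatin replicate 1 alone was high. The mean was 0.29 ± 0.10, or 1.22-fold higher in Cy5 (limma, adjusted p = 0.0388). That call was lost without oxaliplatin replicate 1 (adjusted p = 0.118 for a ratio of 0.16), without vehicle replicate 1 (adjusted p = 0.137 for 0.24), with the scanner's log ratio (adjusted p = 0.200 for 0.22) and with a background offset of 0 in place of 50 (adjusted p = 0.0577 for 0.30), all by limma. The difference was 0.28 ± 0.19, but 0.0094 without oxaliplatin replicate 1 and 0.56 without oxaliplatin replicate 2. In Cy5 the log2 signal of Pdia4 was 10.01 and 9.96 on the oxaliplatin arrays, against 9.73 and 9.74 on the vehicle arrays, so Cy5 alone was higher on both oxaliplatin arrays, by 0.25 in the means. In Cy3 the log2 signal was 9.30 and 9.80 on the oxaliplatin arrays, against 9.48 and 9.69 on the vehicle arrays, which overlapped.

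**Figure D3:**
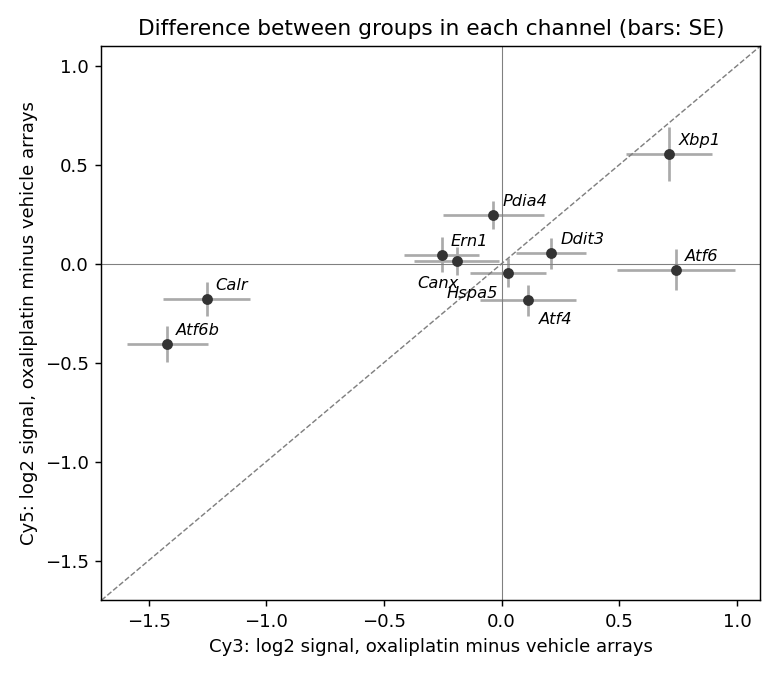
Oxaliplatin minus vehicle difference of each member in Cy5 (vertical axis) against that in Cy3 (horizontal axis), both log2, with SE bars and a dashed line on which both channels differ by the same amount. Atf6b and Calr lie far left at -1.42 and -1.25 in Cy3, Atf6 and Xbp1 lie right at 0.74 and 0.71, and the other members lie near the centre.

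Set side by side, 4 members (Ern1, Atf6b, Calr and Canx) had oxaliplatin ratios that were both above the vehicle ratios, 4 (Atf6, Xbp1, Atf4 and Ddit3) had both below, and Hspa5 and Pdia4 overlapped. Over all genes the groups were apart and higher for 27%, apart and lower for 22.2% and apart in either direction for 49.2%, and nothing is read from the members' counts, since these values chose them. The members' median difference was 0.07, against 0.0055 over all genes, while their median size of difference was 0.29, against 0.14. As the members were chosen on these differences, nothing is read from either contrast. By channel the members' median differences were -0.0083 in Cy5 and -0.0041 in Cy3. Across all genes, the group differences of the 2 channels correlated by 0.857, with points that share the array and its normalisation. The difference in the ratio correlated more closely with that in Cy3 (-0.66) than with that in Cy5 (-0.18). The weight in Cy3 seen for Atf6, Atf6b and Calr is therefore not a trait of the members. With all 4 arrays, 0 of 22821 genes (0%) were called between oxaliplatin and vehicle by limma, where 3342 had an unadjusted p under 0.05. Leaving out an array changed that count to 937 (oxaliplatin replicate 1), 15 (oxaliplatin replicate 2), 33 (vehicle replicate 1) or 2 (vehicle replicate 2), and a block of crossed replicate numbers, added after the data were seen, changed it to 537. With 2 arrays against 2 an exact permutation test could not go below 0.333, two-sided.

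The rest of the pathway was described with 7 gene lists of 108 genes in all, of which 99 were measured. In Cy5 against Cy3, 26 were called higher, 34 lower and 39 were not called (limma), beside 29.3% higher and 26.3% lower over all genes. With median centring 39 were higher and 16 lower, beside 33.6% higher and 27.4% lower over all genes at that setting. Between oxaliplatin and vehicle 0 of the 99 were called by limma, as were 0 of all 22821 genes. An unadjusted limma p under 0.05 was had by 11 of the 99, beside 3342 of all 22821 genes, which is a larger share. The median difference was 0.02, against 0.0055 over all genes.

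**Figure D4:**
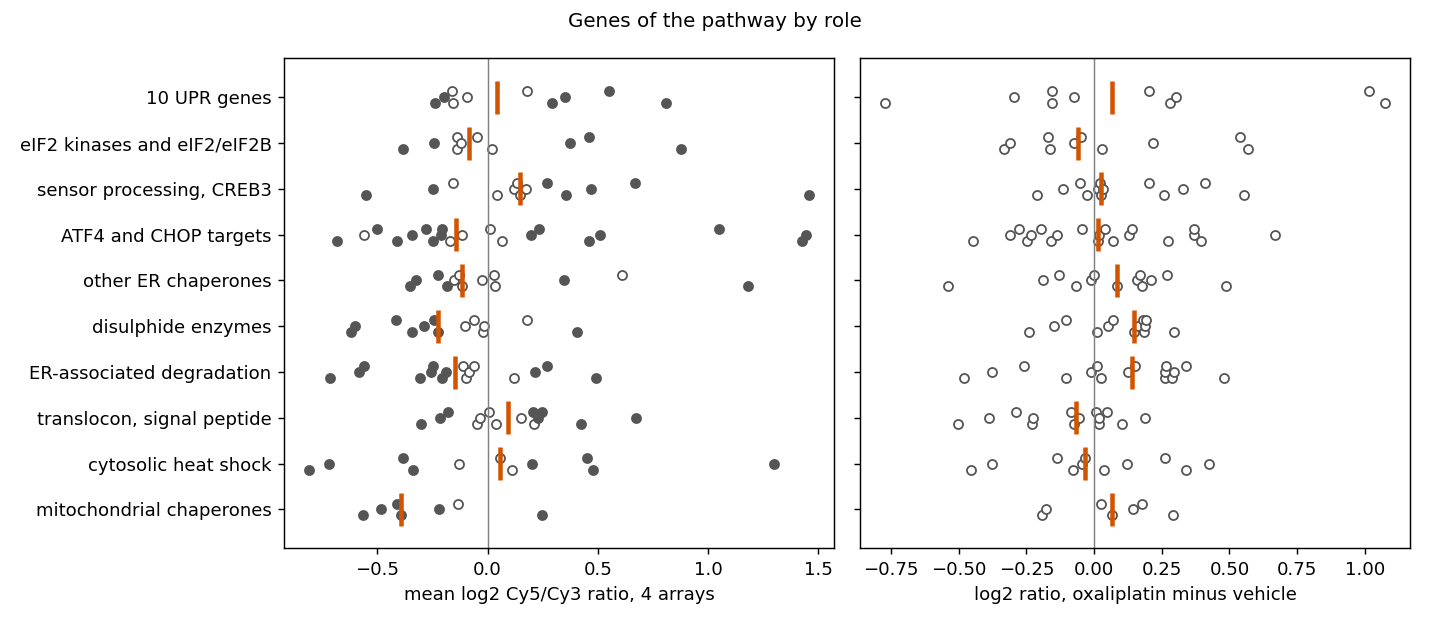
Each measured gene by list, with the mean log2 Cy5/Cy3 ratio over the 4 arrays on the left (filled points are called by limma) and the oxaliplatin minus vehicle difference on the right (none called), and each list's median as an orange bar. On the left the median of the disulphide enzymes (-0.23) lies below 0 and that of the sensor processing list (0.15) above it.

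Among the stress kinases and the translation factors they act on, 3 of 10 genes were higher in Cy5 and 2 lower. Eif2ak3, the PERK sensor itself, had ratios of 1.00 and 0.59 on the oxaliplatin arrays, against 0.92 and 1.00 on the vehicle arrays, with a mean of 0.88 ± 0.08 (limma, adjusted p = 1.8e-04). It was high on all 4 arrays and the groups overlapped. Eif2b2 (0.46) was also higher, as was Eif2s1 (0.37), the subunit that PERK phosphorylates, and Eif2b4 (-0.39) and Eif2b1 (-0.25) were lower. The largest difference was that of Eif2ak2, a kinase that senses double-stranded RNA, at 0.57 ± 0.45, which turned to -0.10 without oxaliplatin replicate 2.

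Of 13 genes that process or relay the sensors' signals, 5 were higher in Cy5 and 2 lower. Wfs1, an ER membrane protein that restrains Atf6, had ratios of 1.58 and 1.60 on the oxaliplatin arrays, against 1.26 and 1.40 on the vehicle arrays. Its mean of 1.46 ± 0.06 (limma, adjusted p = 6.1e-06) was the highest of the 99 pathway genes. Creb3l2, a relative of Atf6 that is cut in the same way, was higher (0.67), as was the caspase Casp12 (0.47). Traf2, the adaptor that joins Ern1 to JNK signalling, was lower (-0.55). Mbtps1, the protease that makes the first cut in Atf6, was lower (-0.25) but stood at 0.03 with median centring and was not called without vehicle replicate 1 (-0.23).

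Targets of Atf4 and Ddit3 split, with 7 of 20 higher in Cy5 and 8 lower. Atf3, a stress factor that also marks injured sensory neurons, had ratios of 1.54 and 2.02 on the oxaliplatin arrays, against 1.296 and 0.929 on the vehicle arrays. Its mean was 1.45 ± 0.10 (limma, adjusted p = 5.6e-05), and its difference of 0.67 ± 0.20 was not called between the groups. Nupr1, a small stress protein, was also higher in Cy5 (1.43), and so was Slc7a11, the cystine transporter (0.46). Atf5 was lower (-0.68), together with Phgdh (-0.50) and Psat1 (-0.34), both enzymes of serine synthesis. With median centring Phgdh stood at 0.23 and Psat1 at 0.33.

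Other ER chaperones gave 2 of 13 higher and 4 lower. Clgn, a relative of Canx best known from the testis, was higher by 1.18 ± 0.06 (limma, adjusted p = 1.9e-05). Its ratios were 1.02 and 0.81 on the oxaliplatin arrays, against 1.45 and 1.45 on the vehicle arrays, the opposite order of groups from Canx. Hyou1, a large chaperone that works with Hspa5, was higher (0.35), and Hspa13 (-0.35) and Dnajc3 (-0.32), a co-chaperone of Hspa5, were lower, as was Creld2 (-0.23). The difference of Cdnf, 0.49 ± 0.49, changed sign when single arrays were left out (-0.18 without vehicle replicate 2 and -0.10 without oxaliplatin replicate 1). Of the disulphide enzymes, 1 of 13 was higher, Erp44 (0.41), and 7 were lower, among them Erp29 (-0.62), P4hb (-0.60) and Pdia6 (-0.42). Pdia6 was at 0.0078 with median centring. Pdia4 was called in the other direction from most of this list.

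Genes of ER-associated degradation, which passes misfolded proteins to the proteasome, gave 3 of 16 higher and 8 lower. Syvn1, the main ubiquitin ligase of the route, was lower (-0.56 ± 0.06; limma, adjusted p = 4.2e-04), as were Man1b1 (-0.71) and Vcp (-0.58), while Derl3 was higher (0.49). In differences between the groups, Os9 (0.48 ± 0.12) and Edem3 (-0.48 ± 0.17) were equal in size and opposite in sign. In the translocon and signal peptidase list, 5 of 14 were higher and 3 lower. Sec61b, a subunit of the channel into the ER, was higher (0.67 ± 0.09; limma, adjusted p = 7.6e-04), as was Spcs2 (0.42), and Ssr2 (-0.30) and Srprb (-0.22) were lower. Spcs3 had the largest difference of that list, -0.50 ± 0.17. Some calls were lost when 1 array was left out. Eif2b1 (-0.34 to -0.15 over the arrays left out) and Creld2 (-0.31 to -0.14) kept theirs in the absence of oxaliplatin replicate 2 but of no other array. Srprb (-0.23 to -0.20) lost it without either vehicle array, and Ssr2 (-0.41 to -0.20) without vehicle replicate 2.

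The ER stress response element was also held by 5 of the 100 entries that genes of these lists had in the promoter table (5%). A gene can have more than 1 entry. The mean Cy5/Cy3 ratios of the 5 genes with it were 0.49 for Derl3, -0.32 for Dnajc3, -0.23 for Creld2, -0.13 for Hsp90b1 and -0.06 for Ero1b. Those of the member genes that hold it were 0.81 for Xbp1, -0.09 for Hspa5, -0.16 for Calr and -0.24 for Canx. Among the 9 genes, Xbp1 and Derl3 were called higher, Dnajc3, Canx and Creld2 lower, and 4 were not called. Beside them, 29.3% of all genes were called higher and 26.3% lower, so nothing is read from these counts. In the differences between the groups, Calr stood at 1.08, Derl3 at 0.30, Hsp90b1 at 0.27, Canx at 0.20 and Creld2 at 0.16. Dnajc3 stood at -0.0014, Hspa5 at -0.07, Ero1b at -0.15 and Xbp1 at -0.16. Genes with the element thus lay on both sides of 0 in either measure.

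Chaperones of other compartments were set beside them. Of 11 cytosolic heat shock genes, 4 were higher in Cy5 and 4 lower. Hspb1, a small heat shock protein abundant in sensory neurons, was higher by 1.30 ± 0.15 (limma, adjusted p = 5.4e-04), and Stip1, a co-chaperone of the cytosol, was lower by -0.72 ± 0.06 (limma, adjusted p = 1.2e-04). Of 7 mitochondrial genes, 1 was higher and 5 lower, with the protease Lonp1 at -0.57 ± 0.06 (limma, adjusted p = 4.2e-04). The median oxaliplatin minus vehicle difference was -0.03 in the cytosolic list and 0.07 in the mitochondrial list, beside 0.07 for the members.

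Cell markers differed between the groups too. The median oxaliplatin minus vehicle difference was 0.58 over the 5 red blood cell markers, 0.42 over the 8 astrocyte markers and 0.42 over the 8 oligodendrocyte markers. The red blood cell markers differed by -0.78 in Cy3 in the median, and the groups overlapped in the ratio of all 5. The summed oligodendrocyte marker signal in Cy3 was 388327 to 396477 on the oxaliplatin arrays, against 511159 to 588951 on the vehicle arrays, while in Cy5 it was 171098 to 190532, against 175630 to 180438. The Cy3 sum was thus lower on both oxaliplatin arrays, and the Cy5 sums overlapped. Among the members, Atf6b and Calr were lower in Cy3 as well, while Atf6 and Xbp1 were higher there. Summed astrocyte signal in Cy3 was 279849 to 282543 on the oxaliplatin arrays, against 334500 to 358048 on the vehicle arrays. In Cy5 it was 182688 to 203173 on the oxaliplatin arrays, against 172257 to 176727 on the vehicle arrays, so the groups were apart there in the other direction. Summed neuronal signal was lower on both oxaliplatin arrays in Cy3 (210879 to 220839, against 234044 to 239721). It was lower in Cy5 too (249385 to 258327, against 260837 to 262459). Plasma cell markers were lower in Cy3 (2189 to 2352, against 2595 to 2615) and overlapped in Cy5. For the other marker lists the Cy3 sums overlapped. In Cy5 the Schwann cell and ganglion sum was lower on both oxaliplatin arrays (164951 to 178998, against 194903 to 201694). The microglial sum was lower there too (38657 to 38980, against 40401 to 41134). The forebrain sum was higher in Cy5 (20248 to 20356, against 16087 to 17329), as was that of secretory epithelium (3831 to 3972, against 3119 to 3317). The red blood cell sums overlapped in Cy5. The part of these shifts in the members' differences was not tested.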

How the data were processed

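Total RNA of 4 samples was hybridised on 2-colour Agilent arrays. Per the file headers, the deposited scanner files hold the median intensity of each spot and of its background in each channel, and the scanner's log10 ratio of Cy5 over Cy3. The value table of the authors holds the same log10 ratios (largest gap 0.0050, medians -0.00492 to 0). Version 10.7.1.1 of Agilent Feature Extraction stands in the headers, and version 8.5.1.1 in the submitters' processing notes. Flags of the deposited files mark outliers, saturation and spots well above background.

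Intensities were background-corrected by normexp (offset 50) and normalised by loess within arrays, in limma 3.58.1 under R 4.3.3. Control spots (4259 of 62976) and 466 to 609 outlier spots per array were left out, spots of a probe were averaged, and probes were kept if 2 or more arrays had Cy5 well above background. Each gene was represented by its brightest kept probe. All 10 members passed, in both channels on all 4 arrays. Single-channel signals were taken after loess and Aquantile.

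Ratios were fitted with lmFit and eBayes (residual df 2, prior df 4.74), two-sided, with Benjamini-Hochberg adjustment over 22821 genes. The fit was tested on simulated data of 22821 genes. For the mean ratio it recovered 98% of 100 genes changed 2-fold, and for the oxaliplatin minus vehicle difference 73%. The simulated noise took its variance from the fit and was independent between genes and arrays, with no slide or array effect. These rates thus check the fit and do not give its power on the real arrays. Members and gene lists were chosen with earlier results of these data known. Named genes were all members, up to 3 per list and direction with the smallest adjusted p, the 2 per list with the largest difference, the 3 nearest genes to Atf6b and Hspa5, and 5 neighbours of Atf6b on either side. Not every gene of that rule is printed. Alternatives were the scanner's log ratio, the authors' value table, median centring, other background corrections and filters, the mean over probes, ratios scaled between arrays, a replicate block and leaving out each array. Promoter sequences are from RefSeq (GRCr8), and probes were named through their accession.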

Additional observations from a re-analysis of the deposited data

Results flagged for a closer look

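Atf6b and Calr had ratios above 0 on both oxaliplatin arrays and below 0 on both vehicle arrays. The oxaliplatin minus vehicle difference in the log2 Cy5/Cy3 ratio was 1.01 for Atf6b and 1.08 for Calr. The difference was not tested, since the members were chosen on these values. In Cy5 alone, after normalisation, it was -0.41 for Atf6b and -0.18 for Calr.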

How the results depend on the processing

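With 4 arrays, no dye swap and a slide per group, dye, slide, scan and group cannot be told apart. The dimness of the Ern1 probe limits its ratio. Scan as a random block could not be fitted. With median centring, 7 members were called higher in Cy5 and 1 lower, 16 wider pathway genes were lower (beside 33.6% of all genes higher and 27.4% lower) and that pathway's median difference was 0.10. The same setting reversed the Cy5/Cy3 ratios of Hspa5 (0.63), Calr (0.27), Mbtps1 (0.029), Phgdh (0.23), Psat1 (0.33), Pdia6 (0.0078) and Spcs1 (0.43), and the differences of Ern1 (-0.033) and Xbp1 (0.031). The mean over probes reversed Srpra (-0.11) and Hspe1 (-0.054). The cause was not tested. Same-numbered arrays deviated with a correlation of -0.22, so they share only a number. With the replicate block 3 genes were called between oxaliplatin and vehicle. That block left 1 member called lower in Cy5, beside 24.5% of all genes, the call of Ern1 being lost. With the crossed replicate block, chosen after seeing the data, 537 genes were called. Leaving out an array gave 2 to 937 genes called between the groups, with 937 when oxaliplatin replicate 1 was dropped, 15 for its replicate 2, 33 for vehicle replicate 1 and 2 for vehicle replicate 2. It gave 0 to 3 members and 19 to 33 wider pathway genes lower in Cy5. The wider pathway's median difference then ranged from 0.015 to 0.051, and the members' median Cy3 difference from -0.11 to 0.15, above 0 without oxaliplatin replicate 1 (0.15) or vehicle replicate 2 (0.11). Over the alternatives, 129 of 150 values of the members' ratios and 141 of 150 of their differences kept direction and call or moved by less than the replicate spread. Many of these values could not change, so the tally is no measure of robustness. A block leaves the mean ratio and the difference themselves unchanged. The filters on dim probes left each member's values as they were. The mean over probes could alter only Atf6, and the authors' value table repeats the scanner's log ratio.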
